A study of Canis lupus familiaris with 13 samples.

Results

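Neutrophil genes and calgranulins were followed as a group of 9 genes in canine tumor biopsies: S100A8, S100A9 and S100A12, CSF3R, CXCR2, CXCL8, MMP8, MMP9, and TREM1. They were chosen by name, and all 9 were among the 43427 gene symbols counted and among the 20118 genes with enough counts to be tested. RNA had been sequenced from 13 biopsies of 4 tumors in 3 adult companion dogs with naturally occurring cancers, and no untreated dogs were included, so the pretreatment biopsy was the baseline of each tumor. Every dog received intratumoral IMAX, a complex of a polyethyleneimine–lithocholic acid conjugate with paclitaxel and a cyclic dinucleotide that activates STING. Dog RV, a spayed female of mixed breed with a soft tissue sarcoma, had a pretreatment biopsy, a biopsy 2 days past its second dose, and 2 biopsies of the same mass 2 weeks past the third dose, at the injection site and beside it. Dog CL, an intact female Shih Tzu, had a cranial and a caudal mammary tumor, each injected and each biopsied before the treatment, 1 week past the second dose, and again at 1 month. Dog BM, a spayed female Great Pyrenees, was biopsied in the left caudal mammary mass, the larger and the only injected of its masses, before the treatment, 1 week past the second dose, and again at 3 weeks. The biopsies fall into the groups before (4 libraries), early (4 libraries, 2 days in RV and 1 week in the mammary tumors), and late (5 libraries). Apart from the late RV sites, each tumor had 1 library per time, so a difference within a tumor has no replicate check, and sarcoma, dog RV, and the 2-day time cannot be told apart.

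Total counts per library were 16259854 to 27707651 before, 14211531 to 27611423 early, and 11622444 to 29931125 late. Levels are given as CPM, counts scaled to a common library size with TMM factors, which correct for differences in library composition. Differences are given on the log2 CPM scale with a prior count of 2 added, and folds are taken from that scale, so folds of genes with few counts are understated. The libraries differed in make-up. Genes in gene-dense regions relative to gene-sparse regions stood at -1.62 log2 in RV at 2 days and -1.24 in CL caudal before treatment. CL caudal at 1 month followed at -0.90, and the remaining libraries ranged from -0.32 to 1.21, the latter in BM at 3 weeks. The share of counts on ribosomal protein genes was 3.16% in RV at 2 days and 16.5% in the same mass before treatment.

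S100A8 and S100A9 form calprotectin, a calcium- and metal-binding complex that makes up much of the neutrophil cytosol, and S100A12 is the related calgranulin C. Monocytes carry these proteins too, and stressed or wounded keratinocytes make S100A8 and S100A9, so calgranulin RNA alone does not name a cell. CSF3R, the receptor for granulocyte colony-stimulating factor, and CXCR2, a receptor for CXCL8, are closer to the neutrophil itself. CXCL8 is the attractant, made by many cell types. MMP8 and MMP9 are a collagenase and a gelatinase stored in neutrophil granules, with MMP9 also made by macrophages and osteoclasts, and TREM1 amplifies inflammatory signaling on neutrophils and monocytes.

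All 9 genes were at least 4-fold higher in the RV biopsy at 2 days than before treatment, against 27.7% of all genes tested. In sections of that biopsy the paper could not definitively identify tumor cells. In CL cranial at 1 week 8 of 9 genes were at least 4-fold higher, against 5.18% of all genes. In CL caudal the calgranulins and CXCL8 were instead at least 4-fold lower at 1 week, against 3.01% of all genes. Their pretreatment levels there were far above those of the other tumors. In BM only TREM1 was at least 4-fold higher at 1 week, against 6.81% of all genes. At 3 weeks only MMP9 was so, against 6.32%. TREM1 was the only gene of the 9 whose early libraries all lay above all before libraries, against 2.71% of all genes. None of the 9 passed the adjusted threshold of the edgeR test in any comparison of time groups over the 4 tumors, and TREM1 passed it in RV alone.

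**Figure D1:**
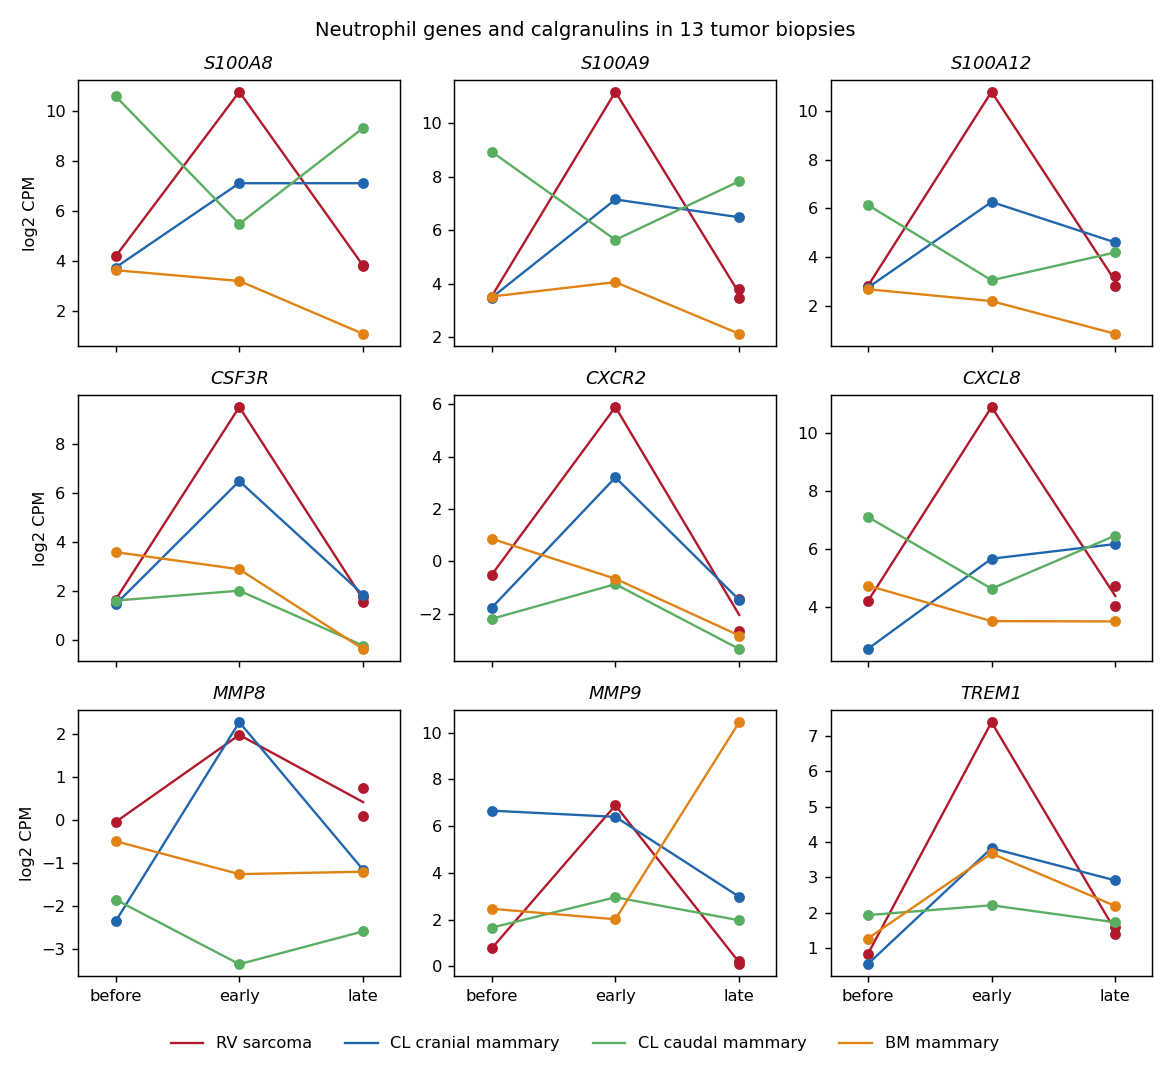
Levels of the 9 genes by time group, 1 panel per gene, with its own vertical axis in log2 CPM and each point a library. Lines join the libraries of a tumor and pass through the mean of the 2 late RV sites. RV peaks early in every panel, whereas CL caudal starts high for the calgranulins and CXCL8, and BM is high late for MMP9 at 1401 CPM.

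The calgranulins lie within 29401 bases of each other on chromosome 7 of UU_Cfam_GSD_1.0, with S100A8 at chr7:43530107-43531042, S100A12 at chr7:43543469-43544911, and S100A9 at chr7:43556431-43559507. In RV, S100A9 stood at 11.3 CPM before treatment, 2321 at 2 days, and 13.8 and 11.01 at the injection and adjacent sites at 2 weeks. The 2-day library was thus the highest of all 13, and both late sites were back at the pretreatment level. In CL cranial S100A9 was 10.99 CPM before, 142 at 1 week, and 89.4 at 1 month. In CL caudal it was 491 before, 49.6 at 1 week, and 228 at 1 month, and in BM it was 11.3, 16.5, and 4.24. The pretreatment levels of RV, CL cranial, and BM were nearly equal, and that of CL caudal stood apart from them.

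S100A8 was likewise high in RV at 2 days and in CL caudal before treatment. It was 18.2 CPM in RV before, 1731 at 2 days, and 14.3 and 13.9 at the late sites. In CL cranial it was 13.4 before and 138 at both later times, so its 1-month level had not declined from that at 1 week. In CL caudal it was 1544 before, close to the 2-day level of RV, then 44.9 at 1 week and 637 at 1 month, and in BM 12.4, 9.20, and 2.06. S100A12 was 6.93 CPM in RV before, 1760 at 2 days, and 9.29 and 6.95 late. It was 6.63, 76.9, and 24.3 in CL cranial, 70.8, 8.23, and 18.3 in CL caudal, and 6.36, 4.51, and 1.72 in BM. The 3 calgranulins were therefore highest in the same library but did not keep one proportion. S100A8 had 0.983 reads per read of S100A12 in RV at 2 days and 1.80 in CL cranial at 1 week, and 21.8 in CL caudal before treatment and 34.9 at 1 month. Such ratios depend on the lengths of the genes, so only their differences between libraries are read.

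CSF3R was 2.999 CPM in RV before treatment, 723 at 2 days, and 3.26 and 2.84 at the late sites. In CL cranial it was 2.61 before, 88.9 at 1 week, and 3.495 at 1 month. Both tumors had a single high library, the early one. In CL caudal CSF3R was 2.93, 3.91, and 0.7504, and in BM 11.8, 7.24, and 0.672. The early libraries, at 3.91 to 723 CPM, all lay above the late libraries, at 0.672 to 3.495, and overlapped with the before libraries. CSF3R lies at chr15:5890652-5904148.

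CXCR2 (chr37:24714358-24719785) had far fewer counts and the same pattern. RV held 9 counts (0.600 CPM) before, 1059 (59.4) at 2 days, and 4 and 1 late, and CL cranial held 4 (0.194), 227 (9.13), and 3 (0.262). In CL caudal the counts were 2, 11, and 0, where 0 counts allow up to 3, and in BM 62, 15, and 1. The early levels of 0.448 to 59.4 CPM again lay above all late levels, the highest of which was 0.271. Of the 9 genes, CSF3R and CXCR2 had early libraries that all exceeded the late ones, a count of 2 against 4.49% of all genes tested.

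The ligand CXCL8 (chr13:63485538-63488849) was 18.4 CPM in RV before, 1896 at 2 days, and 16.6 and 26.6 late. In CL cranial it was 5.86 before, 51.1 at 1 week, and 72.5 at 1 month, so it stayed high when the receptors were near their pretreatment level. In CL caudal it was 138 before, 24.9 at 1 week, and 88.8 at 1 month, and in BM 26.9, 11.5, and 11.4. CXCL8 thus resembled the calgranulins and not its receptor. Across the 13 libraries the Spearman correlation of CXCL8 was 0.86 with S100A8, 0.85 with S100A9, and 0.16 with CXCR2, whereas CXCR2 and CSF3R correlated at 0.92. These are descriptions, since the libraries come from 4 tumors and are not independent. Without RV at 2 days the values were 0.82, 0.81, -0.063, and 0.90.

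TREM1 (chr12:10179448-10188597) was 1.67 CPM in RV before, 168 at 2 days, and 2.92 and 2.54 late. It was 1.36, 14.1, and 7.43 in CL cranial, 3.71, 4.52, and 3.21 in CL caudal, and 2.31, 12.7, and 4.45 in BM. Its early levels of 4.52 to 168 lay above its before levels of 1.36 to 3.71, which held for 1 of the 9 genes and 2.71% of all genes. The early difference from before was above 0 in 4 of 4 tumors for TREM1 alone of the 9, against 10.8% of all genes. In CL caudal that difference was only 0.28 log2, and it became -0.45 when taken relative to genes of similar gene density and length.

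The proteases departed from the others. MMP8 (chr5:29177264-29188014) had 13 counts (0.866 CPM) in RV before, 68 (3.82) at 2 days, and 23 and 16 late, and in CL cranial 2, 117 (4.70), and 4. Its ratio of CPM at 1 week to before in CL cranial was 48.6, with an exact 95% counting interval of 13.2 to 406. It held 3, 0, and 1 counts in CL caudal and 22, 9, and 8 in BM, too few to show a difference of a few fold. MMP8 was the only gene of the 9 with its highest level in CL cranial at 1 week. MMP9 (chr24:33897331-33904192) was 1.60 CPM in RV before, 118 at 2 days, and 1.08 and 0.968 late. It was already 101 in CL cranial before treatment, then 84.2 at 1 week and 7.78 at 1 month, and in CL caudal 3.05, 7.66, and 3.82. In BM it was 5.42 before, 3.94 at 1 week, and 1401 at 3 weeks, the highest MMP9 level of all libraries.

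**Figure D2:**
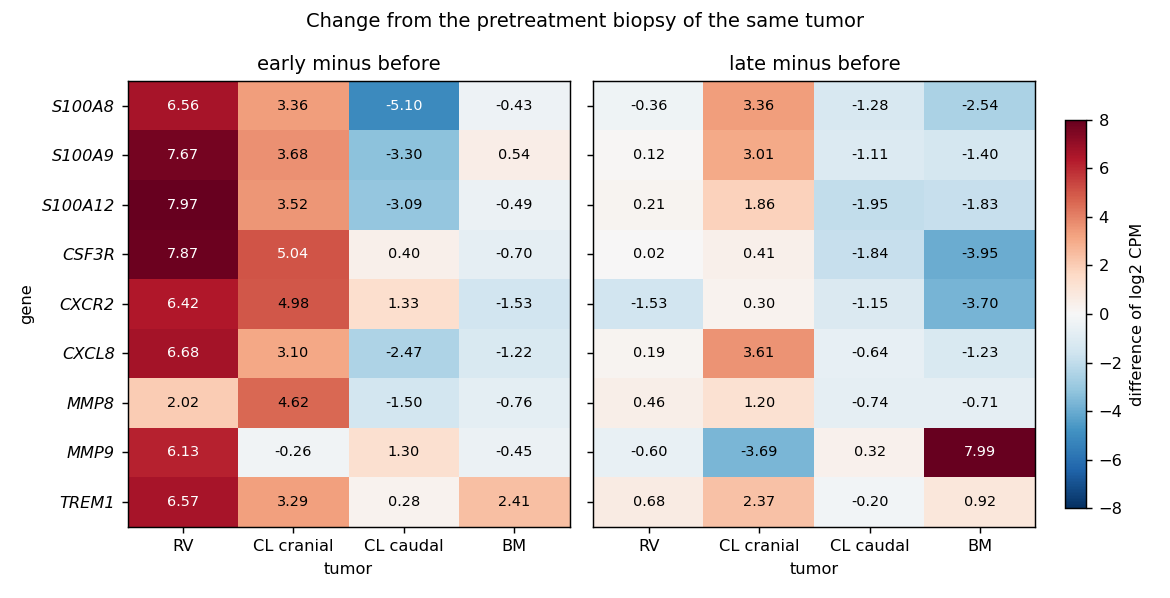
Difference of log2 CPM from the pretreatment biopsy of the same tumor, early on the left and late on the right, with 9 genes in rows and 4 tumors in columns. The late RV value is the mean of 2 sites. RV and CL cranial are red early with the exception of MMP9 in CL cranial, and late values are at least 4-fold higher for S100A8, S100A9, CXCL8, and TREM1 in CL cranial and for MMP9 in BM.

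The test across tumors asked whether the early biopsies differed from the pretreatment biopsies of the same tumors. In edgeR's quasi-likelihood model with tumor as a block, TREM1 was higher early by 3.70 log2 (SE 1.14, adjusted p = 0.281) and CSF3R by 3.36 (SE 1.47, adjusted p = 0.449). S100A9 followed with 3.21 (SE 1.997) and CXCR2 with 3.33 (SE 1.54), and the remaining differences ranged from 1.23 for MMP8 to 2.89 for S100A12. None of 9 genes passed an adjusted p of 0.05, as did 0.00497% of all genes tested. At an unadjusted p under 0.05, CSF3R and TREM1 were higher, 2 of 9 genes against 7.7% of all genes, and DESeq2 called the same 2 at its adjusted threshold, against 5.05% of all genes. The median difference of the 9 genes was 2.89 log2, and that of all genes tested was 0.25. Without the RV libraries S100A8, S100A12, and CXCL8 were lower early, by -0.74, -0.26, and -0.76 log2, while CSF3R was higher by 1.19 and TREM1 by 1.94, each less than with RV. At an unadjusted p under 0.05 the 2 genes became 1 without RV or CL cranial and 4 without CL caudal.

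Late biopsies were compared with pretreatment ones in the same model. None of 9 genes passed the adjusted threshold in edgeR or DESeq2, and in edgeR 0% of all genes did. Only CXCR2 had an unadjusted p under 0.05, lower late by -3.31 log2 (SE 1.46, adjusted p = 0.974), which was 1 of 9 genes against 4% of all genes in either direction. CSF3R was at -2.25 (SE 1.23), and the median of the 9 genes was -0.44 against -0.05 for all genes.

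Early against late gave the largest differences for the receptors, 6.63 log2 for CXCR2 (SE 1.35) and 5.61 for CSF3R (SE 1.25), both with an adjusted p of 0.0603. None of 9 genes passed, against 0.00994% of all genes. At an unadjusted p under 0.05, S100A12, CSF3R, CXCR2, and TREM1 were higher early, 4 of 9 genes against 17.7%, which became 2 without RV and 6 without CL caudal or CL cranial. DESeq2 called these 4 with S100A8 and S100A9, 6 of 9 genes against 23.9%. Within tumors, the early level exceeded the late level in 4 of 4 tumors for CSF3R, CXCR2, and TREM1, 3 of 9 genes against 17.4%. For CSF3R the differences were 7.85 log2 in RV, 3.25 in BM, and 4.63 and 2.24 in the cranial and caudal tumors of dog CL. An exact sign-flip test over 4 tumors cannot reach a p of 0.05.

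Whether the early difference was the same in the sarcoma as in the mammary tumors was tested as an interaction. The RV difference exceeded the common mammary difference by 8.25 log2 for S100A12 (SE 2.13, adjusted p = 0.0943), 7.45 for CXCL8 (SE 1.97, adjusted p = 0.0969), 6.72 for CSF3R (SE 1.95, adjusted p = 0.105), and 4.71 for TREM1 (SE 1.26, adjusted p = 0.0988). MMP8 stood at 1.19 (SE 2.53). None of 9 genes passed in edgeR, as 0% of all genes did, and 6 of 9 had an unadjusted p under 0.05 with a larger difference in RV, against 16.7% of all genes. DESeq2 called 7 of 9, against 17.1%. In the same fit the early difference of RV alone was 6.65 log2 for TREM1 (SE 1.26, adjusted p = 0.0484), the 1 of 9 genes past the adjusted threshold against 1.99% of all genes. CSF3R followed with 7.91 (SE 1.90, adjusted p = 0.0535). For the mammary tumors TREM1 was at 1.94 (SE 0.621, adjusted p = 0.429), and 0 of 9 passed, against 0% of all genes. At an unadjusted p under 0.05 it was 1 of the 9, against 1655 of 20118 genes in either direction. The single early RV library is taken in this fit to vary like the others.

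Read tumor by tumor, RV at 2 days had 9 of 9 genes at least 4-fold higher, against 27.7% of all genes, since that library differed widely from the pretreatment one. The paper's diagnosis of that biopsy was granulomatous to pyogranulomatous dermatitis, and of 9 tested fibroblast and mesenchyme genes 0 were higher, with a median of -2.82 log2. The tissue sampled thus differed between the 2 biopsies, and its part in the levels of the 9 genes was not tested. Differences of the 9 genes ran from 2.02 log2 for MMP8 to 7.97 for S100A12, a 251-fold higher level. Relative to genes of similar density and length they were not smaller, at 2.25 to 8.68. At 2 weeks the differences were -1.53 to 0.68, and the late sites differed from each other by 0.04 log2 for S100A8 to 1.22 for CXCR2, the latter on 4 and 1 counts. Since these are bulk samples, fewer cells of a type and less RNA per cell cannot be told apart.

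Keratinocyte and epidermis genes were high in the same RV library, and S100A8 and S100A9 can come from keratinocytes. All 18 tested keratinocyte and epidermis genes were higher at 2 days than before, by a median of 6.61 log2. The 22 counted genes of that list, tested or not, summed to 5165 CPM against 67.7 to 89.2 in the other RV libraries. KRT1, a keratin of the upper epidermis, was 427 CPM there and 0.733 before, KRTDAP 234 and 0.9995, and CALML5 94.2 and 0.133. A similar sum, 5094 CPM, was found in BM before treatment, where KRT5 at 1746 and KRT14 at 1647 CPM were the highest of the list. KRT1, KRTDAP, and CALML5 were lower there than in RV at 2 days, at 15.3, 5.695, and 0.667 CPM, so the 2 sums hold unlike genes. S100A8 and S100A9 were 12.4 and 11.3 CPM in that BM library. Of 10 tested neutrophil markers outside the 9 genes, 9 were higher in RV at 2 days as well, by a median of 4.07 log2. CD177 was lower, at 0.561 against 3.33 CPM, and ELANE, of neutrophil precursors, held 1 count. CXCR1, the other CXCL8 receptor, was 236 CPM against 0.600 before, PADI4, the enzyme of histone citrullination, 50.4 against 0.466, and FPR2, a formyl peptide receptor, 41.2 against 0.1999. S100A9 had 3.21 reads per read of CSF3R there and 3.78 before, and S100A8 had 2.39 and 6.07. Of 15 macrophage and monocyte genes 9 were higher in this library than before, by a median of 1.79 log2 over the list, summing to 2051 CPM against 1364. CD68 was 168 CPM against 8.53, whereas C1QB was lower, at 28.6 against 52.6. The shares of the calgranulin reads that came from keratinocytes, from neutrophils, and from monocytes or macrophages were not tested.

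CL cranial at 1 week held 8 of 9 genes at least 4-fold higher, against 5.18% of all genes, and MMP9 was the exception at -0.26 log2. CSF3R was 32.8-fold and S100A9 12.8-fold higher. Keratinocyte and epidermis genes were higher in part, 13 of 18 tested with a median of 0.89 log2, and all 22 counted summed to 2039 CPM against 1194. KRT16 and KRT6A, keratins of stressed epithelium, were at 89.3 against 2.71 and 27.8 against 1.79 CPM, and LORICRIN, of the cornified layer, at 4.54 against 0.484. KRT1 was 0.724 CPM against 1.06 before and KRTDAP 0.724 against 0.678. Other neutrophil genes were higher beside the members, with CXCR1 at 13.95 against 1.02 CPM and PADI4 at 24.8 against 0.726. All 15 macrophage and monocyte genes were higher too, summing to 3843 CPM against 709 with a median difference of 1.90 log2, as were 6 of 6 T cell genes with a median of 2.98. S100A9 had 1.59 reads per read of CSF3R, the second-lowest ratio of the 13 libraries. Erythroid ALAS2 was also higher, at 46.0 against 0.629 CPM, and the parts of blood, of monocytes, and of keratinocytes in the result were not tested.

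At 1 month CL cranial held S100A8, S100A9, CXCL8, and TREM1 at least 4-fold above the pretreatment level, 4 of 9 genes against 5.14% of all genes. CSF3R and CXCR2 stood at 0.41 and 0.30 log2. S100A9 per CSF3R was 25.6, against 1.59 at 1 week. MMP9 was -3.69 log2 at 7.78 CPM, and LTF, a granule protein also made by mammary epithelium, was 742 CPM against 4029 before.

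CL caudal differed from its neighbor in the same dog. Its libraries before treatment and at 1 month also differed in make-up. Gene-dense relative to gene-sparse regions stood at -1.24 and -0.90 log2 in them, against 0.21 in CL cranial before treatment. The part of this make-up in the calgranulin levels of CL caudal was not tested. Before treatment S100A9 per CSF3R was 167 and S100A8 per CSF3R 527, where the other pretreatment libraries had 0.958 to 4.20 and 1.05 to 6.07. CSF3R, at 2.93 CPM, lay between its levels of 2.61 in CL cranial and 2.999 in RV. CXCR1, at 1.32 CPM, was the highest of the pretreatment libraries, against 0.600 in RV, 0.889 in BM, and 1.02 in CL cranial. PADI4 at 0.359 and MMP25 at 0.479 CPM were lower than in CL cranial, whereas FPR2 at 4.49 CPM and CAMP, a cathelicidin, at 3.23 were the highest of the pretreatment libraries. The mean of the other neutrophil markers, as log2 of CPM plus 0.5, was 1.54, within the pretreatment range of 0.861 to 2.12. Keratinocyte genes summed to 543 CPM, with KRT1 at 1.62 and KRTDAP at 1.496, and the macrophage and monocyte genes to 973 CPM, within the range of the pretreatment libraries of 392 to 1364. At 1 week S100A8 was 34.3-fold, S100A9 9.87-fold, S100A12 8.51-fold, and CXCL8 5.54-fold lower, 4 of 9 genes against 3.01% of all genes. None of 9 was at least 4-fold higher, against 13.2%. Relative to genes of similar density and length, the 1-week differences were -5.93 log2 for S100A8, -3.58 for S100A9, -3.36 for S100A12, and -2.40 for CXCL8. The ratio of S100A9 to CSF3R was then 12.7, and 304 at 1 month.

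**Figure D3:**
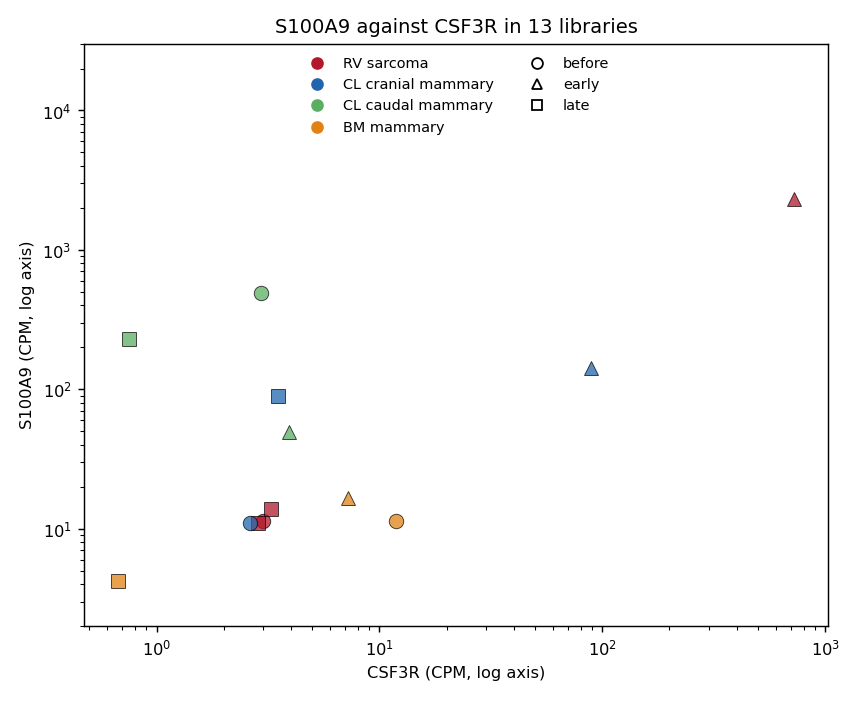
S100A9 against CSF3R in 13 libraries, both in CPM on log axes, with color for the tumor and shape for the time group. RV at 2 days and CL cranial at 1 week lie far right, at 723 and 88.9 CPM of CSF3R. CL caudal before and at 1 month lie high at the left, with 491 and 228 CPM of S100A9 on 2.93 and 0.7504 CPM of CSF3R.

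In BM at 1 week TREM1 alone was at least 4-fold higher, 1 of 9 genes against 6.81% of all genes, at 5.31-fold. TREM1 is shared by neutrophils and monocytes, and macrophage and monocyte genes stood at 3975 CPM against 391 before, with all 15 higher. On the receptor and signaling list 17 of 19 tested genes were higher, by a median of 1.79 log2. That list includes genes shared with macrophages, such as ITGB2 and C5AR1, so it does not stand for neutrophils alone. CD177, also on it, was lower, at 0.3905 against 5.47 CPM. Of 10 tested neutrophil markers outside the 9 genes, only 4 were higher, with a median of -0.21 log2. FPR2 was 4.08 CPM against 0.667, CXCR1 1.06 against 0.889, PADI4 1.92 against 2.58, and MMP25 2.06 against 4.39. CXCR2 was 0.532 against 1.72. The part of each cell type in the TREM1 level was not tested. At 3 weeks S100A8, CSF3R, and CXCR2 were at least 4-fold lower, 3 of 9 genes against 15.3%, with CSF3R 15.5-fold lower. For CXCR2 the ratio of CPM before to that at 3 weeks was 41.0, with an exact 95% counting interval of 7.09 to 1650, on 62 and 1 counts.

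MMP9 at 3 weeks in BM was 254-fold higher, the 1 of 9 genes at least 4-fold higher against 6.32% of all genes. MMP9 had 2090 reads per read of CSF3R there, where the other 12 libraries had 0.164 to 38.7. Genes of osteoclasts, listed after these values were seen, were in part high in the same library. ACP5 was at 778 CPM against 4.39 before, OCSTAMP at 45.2 against 0.0556, and ATP6V0D2 at 65.8 against 0.222. SIGLEC15 was at 16.3 against 0.5 and DCSTAMP at 13.8 against 0.889. TNFRSF11A, at 27.5 against 24.0, and CALCR, at 0.882 against 0.722, were near their pretreatment levels. CTSK was 2597 CPM against 77.9, but also 2417 and 3262 at the late RV sites, where MMP9 was low. The collagenase MMP13 was 501 CPM against 30.6, and the fibroblast and mesenchyme genes summed to 109600 CPM against 2234. All 15 macrophage and monocyte genes were higher as well, summing to 2099 CPM against 391, with CD68 at 119.9 against 6.72. OCSTAMP was at most 1.69 CPM in the other 12 libraries, and that library was CL cranial before treatment, where MMP9 was 101 and ACP5 193 CPM. The part of each cell type in the MMP9 level was not tested.

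**Figure D4:**
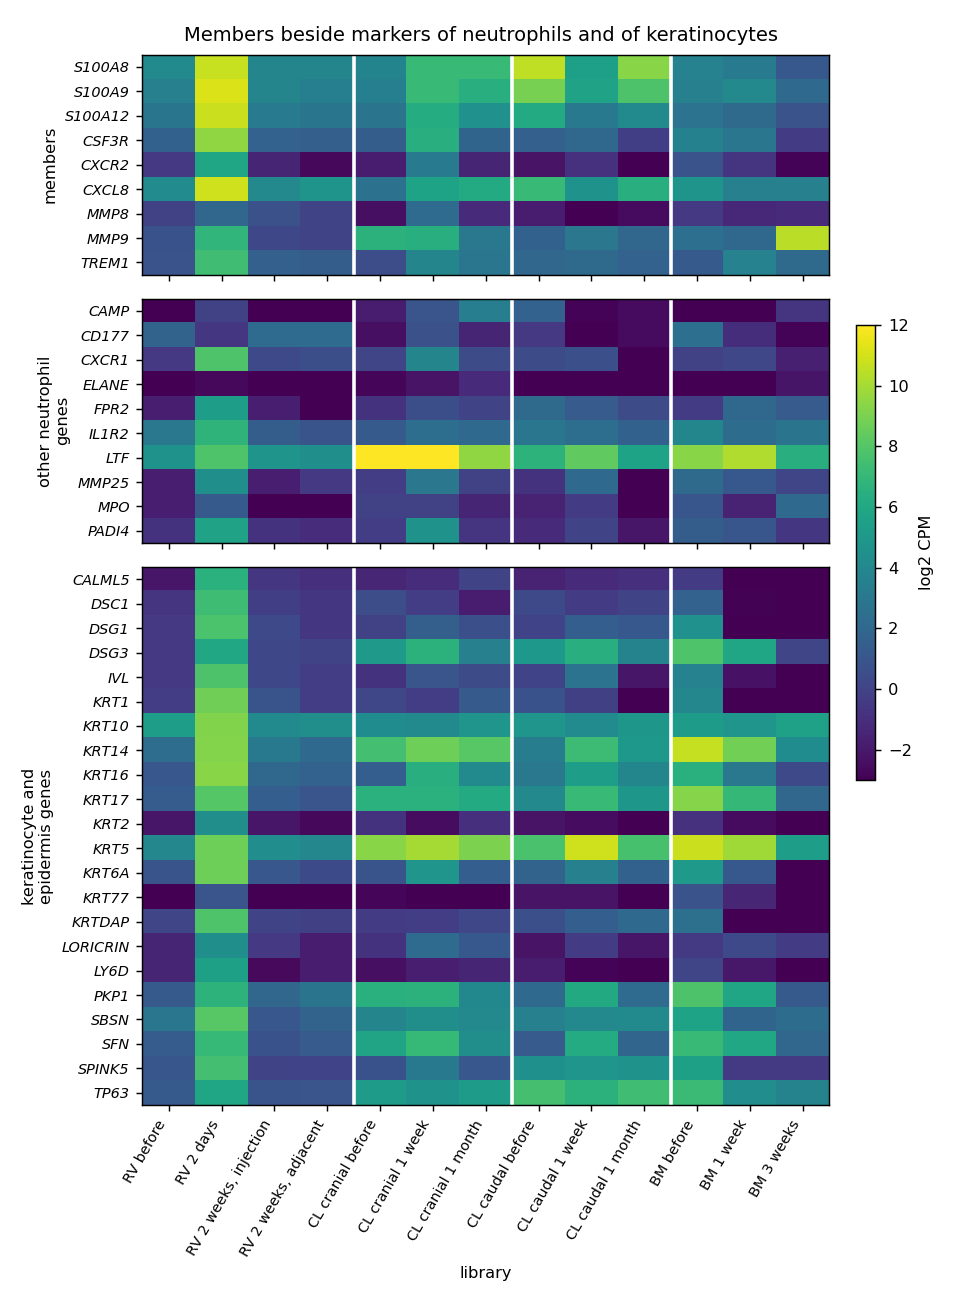
Log2 CPM of the 9 genes, of 10 other neutrophil genes, and of 22 keratinocyte and epidermis genes (rows) in 13 libraries (columns, tumors separated by white lines). RV at 2 days is bright in most rows of all blocks, CAMP, CD177, and ELANE being exceptions. CL cranial at 1 week is brighter than before treatment for CXCR1, PADI4, KRT6A, and LORICRIN and not for KRT1 or KRTDAP. CL caudal before treatment is bright for S100A8 and S100A9 and dark for KRT1. CXCR1 at 1.32 CPM and FPR2 at 4.49 CPM are there the highest of the pretreatment libraries.

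Of other neutrophil markers, 10 were tested and their early difference had a median of 2.22 log2, with 4 of 10 higher at an unadjusted p under 0.05 against 7.7% of all genes. In RV 9 of 10 were higher, with a median difference of 4.07, and in CL cranial 9 of 10, with 2.90, and fewer were so in CL caudal (5 of 10, median -0.14) or BM (4 of 10, median -0.21). Genes of granule production in neutrophil precursors were low. ELANE stayed at or under 0.3495 CPM in all 13 libraries, MPO at or under 4.28, and CAMP at or under 10.4. Eosinophil genes were low, with a sum of 15.6 CPM in RV at 2 days and at most 1.0 elsewhere.

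Among granule and maturation genes 13 were tested. Of them 5 were higher early at an unadjusted p under 0.05, against 7.7% of all genes, and none at the adjusted threshold. CHI3L1, a glycoprotein of specific granules and of macrophages, was higher in all 4 tumors, by 3.57 log2 (SE 0.767, adjusted p = 0.143). BPI, which binds bacterial lipopolysaccharide, was higher in all 4 tumors by 2.81 (SE 0.533, adjusted p = 0.122). LTF was 4029 CPM in CL cranial before treatment, where CSF3R was 2.61.

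Receptors and signaling genes gave 11 of 19 higher early at an unadjusted p under 0.05, against 7.7% of all genes, with a median of 2.61 log2 and none past the adjusted threshold. By direction alone 16 of 19 were higher in RV and 18 in CL cranial, with 17 in BM and 9 in CL caudal. ITGB2, the common chain of leukocyte integrins, was at 3.29 log2 (SE 0.606, adjusted p = 0.117) and C5AR1, the complement receptor, at 3.32 (SE 0.653, adjusted p = 0.132), each higher in 4 of 4 tumors. Both are shared with macrophages. The macrophage and monocyte list had 12 of 15 genes higher at an unadjusted p under 0.05, against 7.7% of all genes, and a median of 1.78. All 7 NADPH oxidase genes had early differences above 0, 5 of them at an unadjusted p under 0.05, against 7.7% of all genes. Among these was NCF1 with 3.49 log2 (SE 0.999, adjusted p = 0.249).

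Of 8 tested attractants and growth factors, 3 were higher early at an unadjusted p under 0.05, against 7.7% of all genes, and 0 at the adjusted threshold. By direction alone 8 of 8 were higher in RV and 8 in CL cranial, with 6 in BM and 3 in CL caudal. CSF3, the ligand of CSF3R, was 14.4 CPM in RV at 2 days and at most 0.359 in the other 12 libraries. CCL3 was 65.5 and 0.133 CPM in RV at 2 days and before, IL1B 20.7 and 0.267, and IL36G, an epidermal interleukin, 30.8 and 0.133. In CL cranial at 1 week IL1B was 1.81 CPM and CSF3 had 0 counts, which allow up to 3, so the high CSF3R there came without detected CSF3. These 4 genes were picked after their values were seen.

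Of 8 receptors and partners of the calgranulins, 8 had early differences above 0, with a median of 1.38 log2. An unadjusted p under 0.05 was reached by 3 of them, against 7.7% of all genes. CD14, a coreceptor of TLR4, was 28.2 CPM in RV before and 321 at 2 days, and 12.8 and 73.9 in BM before and at 1 week. TLR4, at which S100A8 and S100A9 act, was 10.1 and 118 CPM in RV and 35.7 and 23.7 in CL caudal. AGER, the receptor named for advanced glycation end products, did not exceed 2.44 CPM. Among 11 other collagenases, gelatinases, and inhibitors, 3 were higher early at an unadjusted p under 0.05, against 7.7% of all genes, with a median of 1.51. MMP1 and MMP3 were high in RV at 2 days, at 1157 and 429 CPM against 25.6 and 6.93 before, and not in CL cranial at 1 week, at 6.64 and 0.844.

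Other S100 genes showed how far the calgranulin pattern extended along the cluster. Of 12 tested S100 genes outside the 9, 4 were higher early in RV with a median of -1.49 log2, 8 in CL cranial with 0.25, 3 in CL caudal with -1.30, and 9 in BM with 1.57. S100A14 and S100A2, epithelial members of the family, were higher in RV by 6.44 and 5.84 log2, and S100A4, S100A5, and S100A6 lower by -3.39, -4.08, and -2.85. In CL caudal S100A1 was 1414 CPM before, 319 at 1 week, and 1279 at 1 month, the order of S100A8 in that tumor. S100A13 was 158, 51.1, and 163 there, and S100A1 and S100A13 overlap in position, so their reads may not be separable. On the cluster, S100A16 was the only tested neighbor that was not lower at 1 week in CL caudal, and S100A14, S100A16, and S100A2 were the only tested ones higher at 2 days in RV. S100A3, in the same cluster, had too few counts across libraries to be tested. It held 0 counts in RV before and 176 (9.88 CPM) at 2 days.

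**Figure D5:**
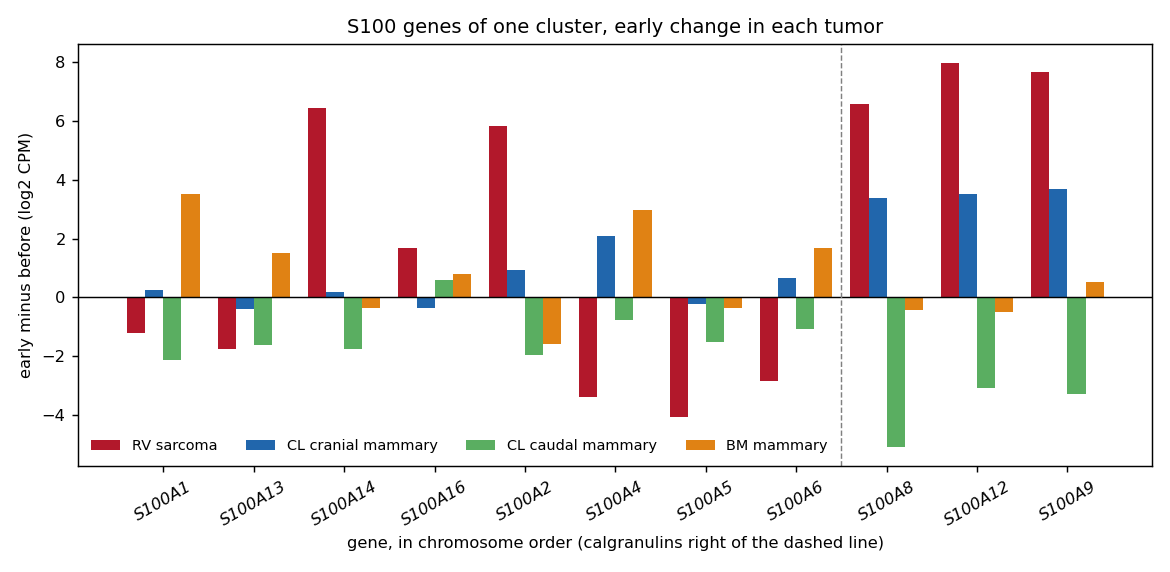
Early minus before, in log2 CPM, for 11 tested S100 genes in their order on chromosome 7, with 1 bar per tumor and single libraries behind each bar. The calgranulins, right of the dashed line, are the only ones higher by at least 3.36 in both RV and CL cranial. In CL caudal 10 of the 11 genes lie below 0, S100A16 being the exception.

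Genes most like S100A9 and CSF3R were sought among 15678 protein-coding genes by Spearman correlation over the 13 libraries. For S100A9 they were RIPK2 (0.97), ATP8A1 (0.96), ACOD1 (0.95), MINDY2 (0.94), and SH2D1B (0.94). RIPK2, a kinase of NOD signaling, was 93.3 CPM in RV at 2 days and 53.5 in CL caudal before treatment, against 10.3 in CL cranial before. ACOD1, which makes itaconate, was 292 CPM in RV at 2 days and 5.62 in CL caudal before. For CSF3R they were LOC119863926 (0.96), LOC486523 (0.95), SYN2 (0.90), FFAR2 (0.88), and MCEMP1 (0.88). FFAR2, a receptor for short-chain fatty acids, was 236 CPM in RV at 2 days, 24.6 in CL cranial at 1 week, and at most 4.58 elsewhere. No gene was named for both, and the correlations describe 13 libraries that share dogs and tumors.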

How the data were processed

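RNA was measured in 13 strand-specific libraries of 4 tumors in 3 dogs. Reads had been aligned to CanFam4.0 in Strand NGS by the authors, who deposited raw counts, not normalized, for each gene symbol. The counting rule, annotation release, and handling of shared reads are not given in the sources used here. Members and gene lists were chosen with earlier results of these data known, and the osteoclast list after its values were seen. Named genes were all 9 members. From each companion list they were taken from the 3 genes with the highest mean and the 2 with the largest early difference shared by 4 tumors, and other genes named with values were picked after seeing them. A marker gene of the neutrophil list is not reported here.

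Genes were filtered with filterByExpr (minimum count 10), scaled by TMM, and tested with glmQLFTest in edgeR 4.0.16 (R 4.3.3) with tumor as a block and Benjamini-Hochberg adjustment at 0.05. DESeq2 1.42.0 was an alternative, on the same filtered genes. The common coefficient of variation was 0.672, with 7 residual degrees of freedom, and 5 for the interaction. P-values measure the spread between biopsies, and the CL tumors share a dog. The pairing comes from the tumor: same-tumor deviations from group means correlated at 0.23 on average for before and early (-0.053 to 0.48) and 0.59 for before and late. No library was a copy of another (the lowest chi-square over degrees of freedom of any pair was 41.3). Symbols matched RefSeq (UU_Cfam_GSD_1.0) for 98.0%, which gave coordinates. Counts of 3 or fewer were treated as the floor, and intervals cover only counting error, as PCR copies were not marked by molecular identifiers. The edgeR and DESeq2 fits of early against before were also run on simulated counts. These held no differences between tumors and the same early change in every tumor. They therefore cannot show how the fits handle tumors that change in opposite directions. Python 3.11.15, pandas 2.3.3, and matplotlib 3.10.9 were used.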

Additional observations from a re-analysis of the deposited data

Results flagged for a closer look

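Libraries that stood far from the rest of their time group were sought among 27 groups of 4 or 5 libraries, of which 1.35 are expected by chance at 1 in 20, and 5 were found. These groups are not independent, so the 5 cannot be read as an excess over 1.35. S100A8, S100A9, and S100A12 were flagged in the same library and correlated at 0.84 to 0.93 over all libraries. In CL caudal before treatment S100A8 stood at 10.59 log2 CPM against 3.65 to 4.19 in the other before libraries, S100A9 at 8.939 against 3.47 to 3.51, and S100A12 at 6.147 against 2.69 to 2.81. In BM before treatment CSF3R stood at 3.577 log2 CPM against 1.44 to 1.63. In BM at 3 weeks MMP9 stood at 10.45 log2 CPM against 0.09 to 2.98 in the other late libraries.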

How the results depend on the processing

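Of 9 genes, 0 passed the adjusted threshold of edgeR in the 3 comparisons of time groups or for RV against mammary tumors, and for the RV early difference alone, run with these settings only, TREM1 passed. By DESeq2 this became 2 early against before, 6 early against late, and 7 for RV against mammary tumors. Without the filter on low counts it became 1 (CXCR2) early against late and 1 (TREM1) for RV against mammary tumors. Leaving out each mammary tumor in turn gave 0 to 4 for the latter, the 4 being S100A12, CXCL8, MMP9, and TREM1 without BM. Over all genes the edgeR counts were 1 early against before, 0 late against before, 2 early against late, and 0 for RV against mammary tumors, and DESeq2 gave 956, 7, 4809, and 3435. Without the filter 17, 1081, and 1505 genes passed early against before, early against late, and for RV against mammary tumors. Library totals alone gave 4 early against before and 10 early against late, upper-quartile factors 5 early against late, and size factors by DESeq2's method 0 early against before. With each tumor left out, with the dog as block, with the libraries compared alone, and with late RV sites summed (early against late), 0 passed in these 2 comparisons, and RV against mammary tumors ranged from 0 to 1921, the latter without BM. The adjusted p of early against late ranged from 4.77e-06 to 0.275 for CSF3R and from 7.98e-06 to 0.275 for CXCR2 over the alternatives.

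Without the replicate block on tumor, 0 genes passed in either early comparison, MMP8 turned to 0.5767 log2 late against before, and MMP9 to -2.401 early against late. The block changed no adjusted call of the 9 genes. At an unadjusted p under 0.05 their counts were 5 early against before, 5 early against late, and 0 late against before without the block, and 2, 4, and 1 with it. Over all alternatives these counts ranged from 1 to 5, 2 to 7, and 0 to 2.

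Directions of single genes turned as follows, in log2, and the causes were not tested. Late against before, CXCL8 was 0.2309 with the libraries compared alone and 0.1439 with late RV sites summed. MMP8 was 0.1078 with the dog as block and 0.04825 with the libraries compared alone, and MMP9 -0.02455, -1.588, and -0.02667 with library totals alone, dog as block, and libraries compared alone. With 1 tumor left out, early against before ranged from -0.7351 to 3.931 for S100A8, -0.2648 to 4.814 for S100A12, -0.7598 to 4.033 for CXCL8 (each lowest without RV), and -0.2942 to 2.264 for MMP8 (lowest without CL cranial). Late against before ranged from -2.017 to 0.1983 for S100A8, -1.397 to 0.3235 for S100A9, -1.11 to 0.739 for CXCL8, -0.8435 to 0.1424 for MMP8, and -1.791 (without BM) to 3.234 for MMP9. Early against late ranged from -0.684 to 3.863 for CXCL8 and from -2.755 to 4.507 for MMP9, each lowest without RV, and RV against mammary tumors from -0.6829 (without BM) to 3.945 for MMP8.

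Within tumors, library totals alone moved the median of all genes by -0.674 to 0.692 log2 and turned the sign of 0 of 36 early and 0 of 36 late differences of the 9 genes. Early against late it turned 2 of 36, S100A8 in CL cranial and MMP8 in BM, both near 0. Depth limits CXCR2 and MMP8, which had 3 or fewer counts in several libraries. The comparison relative to genes of similar density and length was chosen after seeing the data.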
